A study of Mus musculus with 8 samples.

Results

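Dermal fibroblast identity genes are described here, as measured in the dorsal skin of hairless mice fed collagen hydrolysate or a control diet. The members are Pdgfra, Pdgfrb, Twist1, Twist2, Thy1, Dpt, Prrx1, Fap, Dpp4 and S100a4, chosen by name. All 10 were measured, by 21 of the 45037 probe sets (groups of probes against a transcript), and each gene is represented by its brightest probe set among 18193 genes. The collagen group was fed AIN-93G, a purified rodent diet, to every 100 g of which 2.0 g of collagen hydrolysate was added, a digest of fish-scale collagen into peptides, and the control group was fed AIN-93G alone. All mice were female Hos:HR-1, a hairless strain, aged 10 weeks at sampling after 1 week on the diet. The series holds 8 arrays, 4 from collagen-fed mice and 4 from control mice, which the labels call biological replicates. Each diet had 8 mice, and which of them gave the arrays is not stated in the sources used here. Mice were kept 4 to a cage, and the cage behind each array is not given either. Precision is limited by the small number of arrays.

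Fibroblasts make and remodel the collagen-rich matrix of the dermis. They answer platelet-derived growth factor through a pair of receptor tyrosine kinases, and mesenchymal transcription factors of the Twist and Prrx families act in the embryonic tissue they come from. In mouse skin, fibroblasts of the upper, papillary dermis and those of the lower, reticular dermis and fascia descend from different progenitors and carry different surface proteins. Several of the members are also made by other cells: Pdgfrb marks pericytes, Thy1 and Dpp4 are found on T cells, and S100a4 is abundant in macrophages.

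Twist proteins are basic helix-loop-helix factors that bind E-box sequences. RefSeq promoters (GRCm38.p6, from 250 bases before the annotated start to 50 bases after it) were matched for 7 of the 10 members. Searched on both strands, the E-box CATCTG or CAGATG was in the promoters of Pdgfra and Dpt, and in 17.2% of all 32851 promoters of this length. The E-box CATATG was in none of the 7 (3.91% of all promoters). These promoters are shown because Pdgfra and Dpt hold a Twist-type E-box and because Twist1 and Prrx1 were the pair of members with the highest correlation over the arrays. Capitals mark that E-box, the TATA box TATAAA (13.6% of all promoters) and the GC box GGGCGG or its complement CCGCCC (35.7%).
Pdgfra, chr5:75152001-75152300, plus strand: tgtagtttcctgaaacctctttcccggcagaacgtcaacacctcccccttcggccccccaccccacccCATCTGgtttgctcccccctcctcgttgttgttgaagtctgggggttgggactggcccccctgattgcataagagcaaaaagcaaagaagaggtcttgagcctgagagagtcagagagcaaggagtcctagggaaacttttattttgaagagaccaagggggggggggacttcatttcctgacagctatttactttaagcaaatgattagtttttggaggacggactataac
Dpt, chr1:164796413-164796712, plus strand: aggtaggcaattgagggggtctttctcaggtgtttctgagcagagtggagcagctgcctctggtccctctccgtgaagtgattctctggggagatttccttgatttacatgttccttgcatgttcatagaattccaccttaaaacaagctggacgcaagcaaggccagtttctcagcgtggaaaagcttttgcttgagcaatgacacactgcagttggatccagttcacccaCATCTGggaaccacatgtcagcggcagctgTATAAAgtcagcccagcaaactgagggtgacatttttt
Twist1, chr12:33957421-33957720, plus strand: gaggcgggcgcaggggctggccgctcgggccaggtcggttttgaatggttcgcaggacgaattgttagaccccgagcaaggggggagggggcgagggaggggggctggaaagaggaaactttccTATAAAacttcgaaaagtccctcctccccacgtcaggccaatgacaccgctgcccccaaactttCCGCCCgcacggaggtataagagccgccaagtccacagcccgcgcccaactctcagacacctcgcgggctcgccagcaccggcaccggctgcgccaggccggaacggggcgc
Prrx1, chr1:163313601-163313900, minus strand: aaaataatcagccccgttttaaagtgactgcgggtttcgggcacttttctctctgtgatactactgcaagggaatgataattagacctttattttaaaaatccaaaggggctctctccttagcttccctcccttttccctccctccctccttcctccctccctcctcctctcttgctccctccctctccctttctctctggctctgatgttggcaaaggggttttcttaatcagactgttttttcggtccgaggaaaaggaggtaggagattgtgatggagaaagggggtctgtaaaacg
With 0 at the first of the 50 bases after the start, the E-box began at position -182 in Pdgfra and at -18 in Dpt. The TATA box began at -126 in Twist1 and at 12 in Dpt, and the GC box of Twist1 at -62. No motif of the 3 kinds was in the window of Prrx1. These matches describe the letters of the windows, and binding was not measured.

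On the deposited scale, read here as log2, the median over the means of all probe sets was 8.193, and the brightest probe set of each member exceeded it. The means over 8 arrays were 11.69 for Pdgfra, 11.28 for Pdgfrb, 8.99 for Twist1, 9.54 for Twist2, 10.95 for Thy1, 13.1 for Dpt, 11.4 for Prrx1, 10.31 for Fap, 9.59 for Dpp4 and 12.97 for S100a4. Each probe set has its own response, so these levels are not ranked against each other. Of the 21 probe sets, 17 reached that median. The other 4 were a Pdgfra probe set and 3 of the 6 Prrx1 probe sets. Signal over background is unknown.

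The deposited values varied very little between arrays. The range over the 8 arrays was 15.7 millionths of a log2 unit for Prrx1, the smallest of the members, and 4714 millionths for Thy1, the largest, against a median of 9.16 millionths over all genes. The other wide ranges were those of Fap (2244 millionths) and Dpp4 (615 millionths). How a difference on this scale relates to a change in transcript number is unknown, and no folds are given. Values of single arrays are given as deviations from the gene's own mean over the 8 arrays, in millionths of a deposited log2 unit. Means and standard deviations (SD) rest on n = 4 arrays per diet, and differences carry the moderated standard error (SE) of limma.

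**Figure D1:**
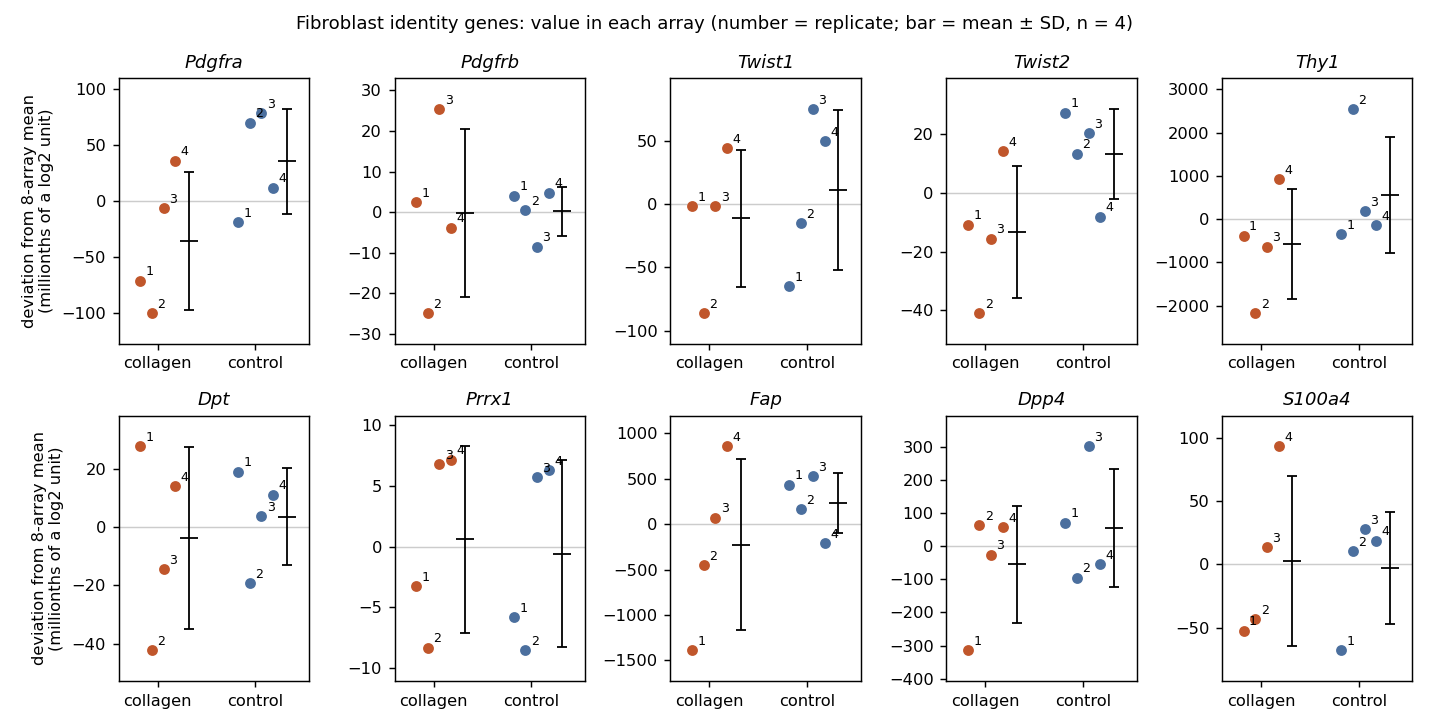
Deviation of each array from the gene's mean over the 8 arrays, in millionths of a deposited log2 unit, for the brightest probe set of the 10 genes. Points are arrays with their replicate number, bars are the mean ± SD of 4 arrays, and collagen 2 is the lowest array for 6 genes.

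Pdgfra, the receptor that marks fibroblasts across the dermis, lay lower with collagen on average, and the diets overlapped. Its 4 collagen arrays deviated by -71.4, -100.3, -6.44 and 36.1 millionths, against -19.1, 70.2, 78.9 and 12.0 millionths in the 4 control arrays. Collagen 1 and collagen 2 lay below each control array, while collagen 4 lay above control 1 and control 4. The difference, collagen minus control, was -71.0 ± 37.3 millionths (SE), or -1.29 within-diet SD (unadjusted p = 0.102, adjusted p = 0.999 by limma over all genes). The 95% interval ran from -160.7 to 18.7 millionths. After the median of each array was subtracted, which shifts all genes of an array alike, the difference was -15.8 ± 77.9 millionths. The other 2 Pdgfra probe sets, of lower level, differed by -2.17 ± 5.51 and -0.355 ± 0.330 millionths.

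Pdgfrb, the second receptor, did not separate the diets either. Its collagen arrays deviated by 2.45, -24.8, 25.4 and -3.84 millionths and its control arrays by 4.03, 0.43, -8.48 and 4.76 millionths. The lowest and the highest value were thus both in collagen arrays, and the control arrays lay between them. The difference was -0.380 ± 10.4 millionths (limma, adjusted p = 0.999), and that of its other probe set, at a level of 9.58, was -9.99 ± 15.3 millionths.

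The ligands of these receptors lay lower with collagen in 3 of 4 genes, and none passed the adjusted test. Pdgfa, a ligand of PDGF receptor alpha, differed by -1.48 ± 0.531 millionths (unadjusted p = 0.0289 and adjusted p = 0.999 by limma). Pdgfb differed by -92.8 ± 51.9 millionths and Pdgfc, the highest in level, by 5.08 ± 13.8 millionths. Among 14 signalling proteins that act downstream of the receptors, 6 lay lower and 8 higher, none at unadjusted p under 0.05. The adaptors Nck1 and Crk differed by 6.24 ± 2.76 and 3.67 ± 1.78 millionths.

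Of the transcription factors, Twist2, which is active in dermal progenitors, had the largest difference of all members relative to its spread. The collagen arrays deviated by -10.8, -40.9, -15.6 and 14.2 millionths, against 27.4, 13.3, 20.4 and -8.06 millionths in the control arrays. The diets overlapped through collagen 4, which lay just above control 2, and control 4, the lowest of its group. The difference was -26.5 ± 13.1 millionths, or -1.37 within-diet SD (unadjusted p = 0.0863, adjusted p = 0.999 by limma), and it was 28.7 millionths, of the opposite sign, after the median of each array was subtracted. After quantile normalization, which replaces each value by the mean of the values at its rank, the difference was -252.8 ± 232.2 millionths. Such differences follow steps of rank and cannot be compared in size with those of the deposited values.

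Twist1, its relative, deviated by -1.76, -86.1, -1.54 and 44.2 millionths in the collagen arrays and by -64.7, -15.0, 75.1 and 49.8 millionths in the control arrays. The diets overlapped over most of the range, with collagen 2 lowest and control 3 highest. The difference was -22.6 ± 40.1 millionths (limma, adjusted p = 0.999). Without collagen 2 it was 2.33 millionths, of the opposite sign.

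Prrx1, a homeobox factor of limb and skin mesenchyme, deviated by -3.27, -8.35, 6.78 and 7.17 millionths in the collagen arrays and by -5.83, -8.55, 5.72 and 6.31 millionths in the control arrays. Replicates 1 and 2 of both diets lay below the mean and replicates 3 and 4 above it. The difference was 1.17 ± 5.23 millionths. Of its 6 probe sets, 5 lay higher and 1 lower with collagen, with differences from -22.4 to 3.37 millionths and unadjusted p from 0.668 to 0.94 by limma.

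The Twist partner list (the E proteins Tcf3, Tcf4 and Tcf12, Hand2, and the Id inhibitors, which sequester E proteins) lay lower in 5 of 8 genes, with a median of -0.29 within-diet SD. Tcf12 differed by 4.46 ± 1.95 millionths, Tcf4 by -11.4 ± 5.96 millionths and Id4 by 19.6 ± 16.5 millionths. Of 13 other mesenchymal transcription factors, 8 lay lower, among them Osr2 (-69.6 ± 40.6 millionths), Prrx2 (-139.1 ± 99.3 millionths) and Zeb2 (-26.5 ± 18.9 millionths). No gene of either list reached unadjusted p under 0.05. Of the genes named here, Hand2 and Osr2 lay below the median level of all probe sets.

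Thy1, the surface glycoprotein CD90, had the widest range of the members. Its collagen arrays deviated by -385, -2167, -638 and 929 millionths and its control arrays by -344, 2547, 190 and -133 millionths. The extremes were collagen 2 and control 2, and the other 6 arrays lay between -638 and 929 millionths. The difference was -1130 ± 887 millionths (95% interval -3263 to 1002, limma, adjusted p = 0.999), and it was -470 millionths without control 2.

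Fap, fibroblast activation protein, is a membrane serine protease of activated fibroblasts. It deviated by -1389, -451, 71.2 and 855 millionths in the collagen arrays, against 434, 162, 527 and -209 millionths in the control arrays. The lowest and the highest array were both in the collagen group. The difference was -457 ± 480 millionths (limma, adjusted p = 0.999), and -69.8 millionths without collagen 1.

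Dpp4, the dipeptidyl peptidase CD26, is the closest relative of Fap and marks papillary and fascia fibroblasts in mouse skin. In the gene table of GRCm38.p6 the genes lie on chromosome 2 with 1 coding gene, Gcg, between them. The collagen arrays of Dpp4 deviated by -314, 62.9, -26.0 and 56.1 millionths, against 70.5, -95.1, 301 and -54.8 millionths in the control arrays. Collagen 1 stood below the others and control 3 above them. The difference was -110.6 ± 120.8 millionths (limma, adjusted p = 0.999). It was -24.3 millionths without collagen 1, -28.8 millionths without control 3 and -55.4 millionths after the median of each array was subtracted. After quantile normalization, where differences follow steps of rank, it was -569.8 ± 194.4 millionths (unadjusted p = 0.0242, adjusted p = 0.802 by limma). Its size cannot be compared with the deposited differences.

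The probe sets of Dpp4 ranked the arrays much alike. By rank correlation, chosen after seeing the data, 3 of their 6 pairs passed adjustment, and by Pearson r none did. Over the 8 arrays the probe sets at levels of 8.88 and 8.6 had Pearson r = 0.87 (p = 0.0057) and the same order of arrays (Spearman rho = 1, p = 5e-05, the smallest that exact permutation can give). After Benjamini-Hochberg adjustment over 25 pairs of probe sets of the same gene these were adjusted p = 0.0713 and adjusted p = 0.00124. The brightest, at 9.59, had rho = 0.929 with each of them (p = 0.00223, adjusted p = 0.0186, exact permutation), with r = 0.777 and r = 0.73 (adjusted p = 0.0785 and 0.142). Without the pair of arrays farthest from the median, r was 0.929 for the first pair and 0.823 and 0.848 for the other two. The other 3 pairs of Dpp4 had r from 0.605 to 0.953, and none passed adjustment. In all 4 probe sets collagen 1 lay low and control 3 high, while control 2 was the lowest array in the probe sets at 8.88 and 8.6. Probe sequences were not analysed here, so probes that these sets may share were not examined. All tests of pairs are two-sided exact permutation tests.

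**Figure D2:**
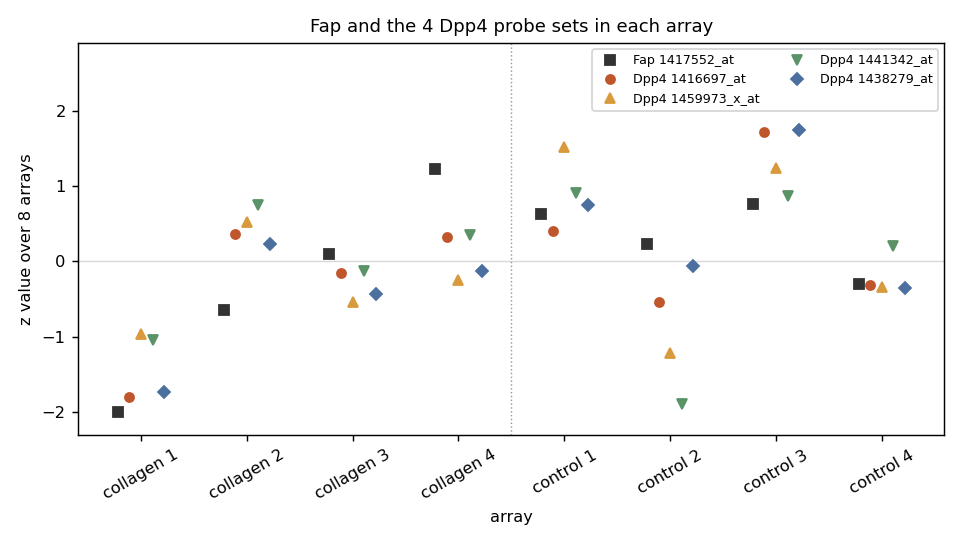
The z value (deviation from the mean over 8 arrays, divided by the SD over them) of Fap and of the 4 probe sets of Dpp4 in each array, collagen arrays left of the dotted line. Collagen 1 lies below 0 and control 3 above 0 in each of the 5 probe sets.

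Besides Dpp4, only Pdgfra, Pdgfrb and Prrx1 had more than 1 probe set, and most of their pairs had a lower r than those of Dpp4. The 6 members with 1 probe set each could not be compared in this way. Of the 25 pairs, 24 had r above 0, with a median of 0.541, and no pair outside Dpp4 passed. The brightest Pdgfra probe set had r = 0.719 (p = 0.0466) and rho = 0.667 (p = 0.0831) with the probe set at 8.01, with adjusted p = 0.146 and 0.26 by exact permutation, and r = 0.515 without the arrays farthest from the median. For Pdgfrb r was 0.28 (p = 0.508) and rho 0.19 (p = 0.665, exact permutation), and r was -0.392 without the arrays farthest from the median. Among the 15 Prrx1 pairs r ran from -0.19 to 0.842.

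Dpt, dermatopontin, is a matrix protein that binds decorin and collagen fibrils. Its collagen arrays deviated by 27.8, -42.3, -14.4 and 14.1 millionths and its control arrays by 19.1, -19.2, 3.73 and 11.1 millionths. The collagen group held both the lowest and the highest array. The difference was -7.38 ± 17.0 millionths (limma, adjusted p = 0.999), and 5.49 millionths without collagen 2.

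S100a4, a calcium-binding protein also known as fibroblast-specific protein, deviated by -52.5, -43.5, 13.6 and 93.3 millionths in the collagen arrays. In the control arrays it deviated by -67.8, 10.4, 27.9 and 18.6 millionths. Control 1 was lowest and collagen 4 highest. The difference was 5.45 ± 38.6 millionths (limma, adjusted p = 0.999), and without control 1 it was -16.3 millionths.

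No member passed the test between diets. By limma 0 of the 10 genes and 0 of their 21 probe sets passed an adjusted p of 0.05, as did 0% of all genes and 0% of all probe sets. At unadjusted p under 0.05 there were 0 of 10 members, where the share over all genes was 3.49% (635 genes) and that over all probe sets 3.55%. That 0 depended on the setting: Pdgfra and Twist2 passed without collagen 4 (unadjusted p = 0.0367 and 0.0231 by limma). Twist2 also passed without control 4 (0.0468), with array weights (0.0297) and with the mean z value of skeletal muscle markers as a covariate (0.0303), and Dpp4 passed after quantile normalization. None passed after adjustment (adjusted p 0.555 or above). The diets overlapped in each member and each of the 21 probe sets, against 2.01% of genes and 1.98% of probe sets without overlap. On average 8 of 10 members and 15 of 21 probe sets lay lower with collagen, against 47.1% of all genes and 46.7% of all probe sets. The median difference of the members was -0.503 within-diet SD, against 0.052 over all genes. Without collagen 2, 5 of 10 members lay lower, against 46.1% of all genes. After the median of each array was subtracted, 4 of 10 lay lower, against 5.38% of all genes. That step moved the differences of all genes up by the same amount. In bulk skin, fewer fibroblasts and less RNA per fibroblast cannot be told apart.

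**Figure D3:**
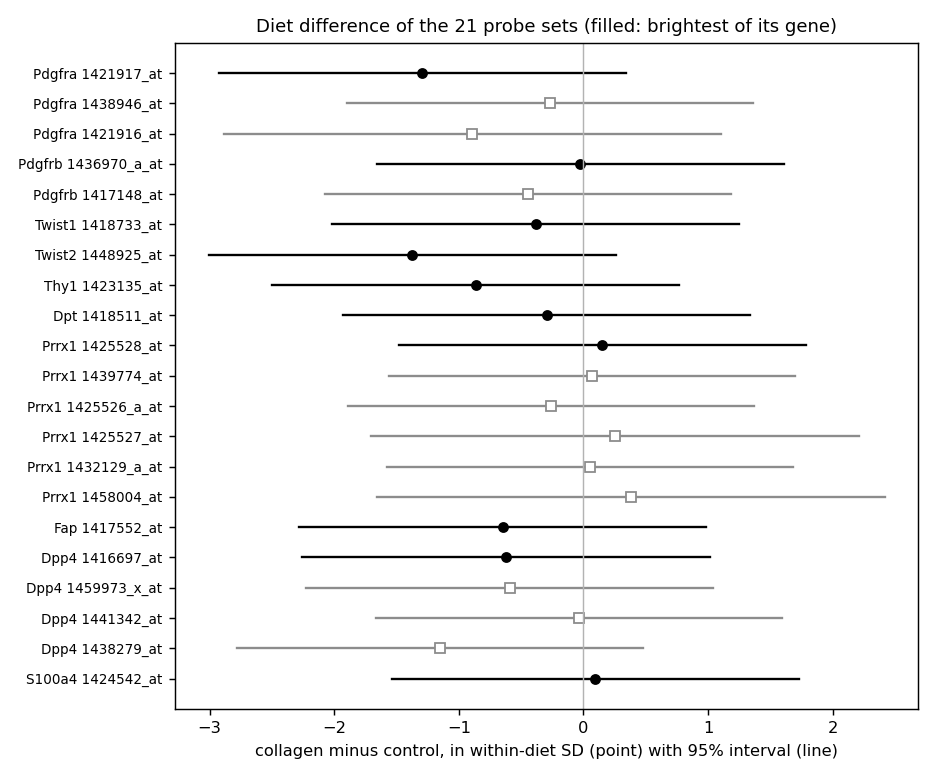
Collagen minus control for the 21 probe sets, divided by the within-diet SD of the probe set (points), with the 95% interval from limma's moderated SE (lines); filled points are the brightest probe set of each gene. The 10 filled points run from -1.37 (Twist2) to 0.152 (Prrx1), and every interval includes 0.

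Much of the variation was between arrays of the same diet. Collagen 2 was the lowest array for 6 of 10 members (Pdgfra, Pdgfrb, Twist1, Twist2, Thy1 and Dpt) and lay below the mean in 9. Over all genes collagen 2 was the lowest array in 15.38% of cases. Collagen 1 was lowest for Fap and Dpp4, S100a4 was lowest in control 1 and Prrx1 in control 2. At the other end, collagen 4 and control 3 were each the highest array for 3 members. The mean z value of the 10 genes was -0.58, -1.24, 0.107 and 0.733 in collagen 1 to 4, and -0.049, 0.121, 0.699 and 0.206 in control 1 to 4. Both extremes were in the collagen group, and the control arrays lay between them.

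Members tended to vary together over the 8 arrays, less so without collagen 2, and no pair passed adjustment. Of 45 pairs, 41 had a Pearson r above 0, with a median of 0.35 and a range from -0.334 to 0.815. At unadjusted p under 0.05 there were 6 pairs, and the smallest adjusted p over the 45 was 0.305 (exact permutation). The median r was 0.141 without collagen 2, and 0.343 for deviations from the mean of each diet. Without collagen 2 several pairs turned negative, among them Pdgfrb with Twist2 (-0.656) and Pdgfra with Dpt (-0.599). Others stayed high, among them Fap with Dpp4 (0.824) and Twist1 with Prrx1 (0.755). The 41 pairs above 0 thus rest in part on that array. As a description, the median r of a member to the other 9 ran from 0.212 (Dpt) to 0.678 (Pdgfra), while its median r to all genes lay between -0.001 and 0.061. All genes share the same 8 RNA samples and scaling.

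Twist1 and Prrx1 had r = 0.815 (p = 0.0189) and rho = 0.714 (p = 0.0576, exact permutation), and r = 0.753 without collagen 2 and control 3. Only 0.86% of all genes had an r to Twist1 as high. Pdgfra and Thy1 had r = 0.802 (p = 0.0133) and rho = 0.857 (p = 0.0107, exact permutation), and r = 0.819 without collagen 2 and control 3. Here 4.06% of all genes had an r to Pdgfra as high. For both pairs the adjusted p was 0.305 for r and 0.374 for rho, so they stand as the strongest of 45 and not as established relations. Twist1 and S100a4 had r = 0.738 (p = 0.036) and rho = 0.81 (p = 0.0218, exact permutation), with r = 0.769 without the same arrays.

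Pdgfra and Fap had r = 0.701 (p = 0.049) and rho = 0.714 (p = 0.0576, exact permutation), and r = 0.702 without collagen 2 and control 3. Of all genes, 8.49% had an r to Pdgfra as high as that of Fap, and 7.15% one as high as that of Twist2. Pdgfra and Twist2 had r = 0.732 (p = 0.0402) and rho = 0.571 (p = 0.151, exact permutation). Without collagen 2 and control 3, the arrays farthest from the median of Pdgfra, that r was 0.389, and without collagen 2 and control 1, the farthest in Twist2, it was 0.833. Fap and Dpp4 had r = 0.749 (p = 0.0447) and rho = 0.571 (p = 0.151, exact permutation), and r = 0.497 without collagen 1 and collagen 4, or 0.26 without collagen 1 and control 3. Adjusted over 45 pairs, r had p = 0.305 in these 4 cases too, and rho had p = 0.374 for Twist1 with S100a4 and Pdgfra with Fap and p = 0.566 for the other two.

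The lowest of the 45 was Pdgfrb with Dpp4, at r = -0.334 (p = 0.422) and rho = -0.405 (p = 0.327, exact permutation), and r = -0.678 without collagen 2 and collagen 3. The receptors Pdgfra and Pdgfrb had r = 0.216 (p = 0.631) and rho = -0.095 (p = 0.84, exact permutation), and r = -0.236 without collagen 2 and control 3. Among the genes with an E-box in the promoter, Pdgfra and Twist1 had r = 0.687 (p = 0.0602) and rho = 0.69 (p = 0.0694, exact permutation), and r = 0.242 without collagen 2 and control 3. Dpt had r = 0.449 with Twist1 (p = 0.263) and rho = 0.214 (p = 0.619, exact permutation), and r = 0.033 without those arrays. With Twist2, Dpt had r = 0.564 (p = 0.15) and rho = 0.452 (p = 0.267, exact permutation), and r = -0.143 without collagen 2 and control 1. None of these 5 pairs passed adjustment over the 45 (adjusted p for r 0.305 to 0.796).

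**Figure D4:**
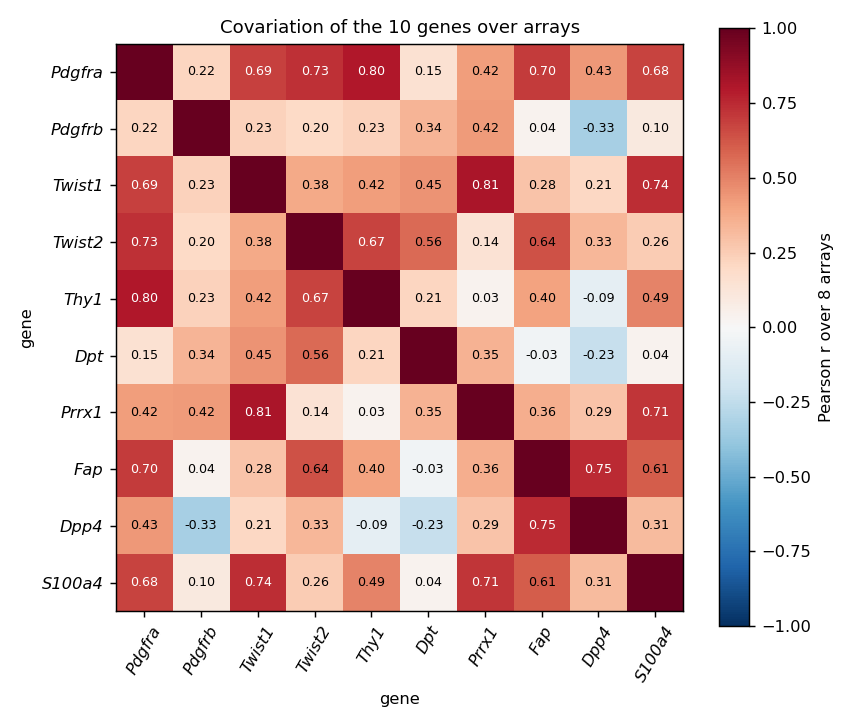
Pearson r over the 8 arrays for each pair of the 10 genes, on a colour scale from -1 (blue) to 1 (red). The pairs run from -0.334 (Pdgfrb with Dpp4) to 0.815 (Twist1 with Prrx1), and 41 of 45 are above 0. The median r was 0.35, and 0.141 without collagen 2.

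Genes outside the list were ranked by their likeness to the members. Among genes at or above the median level, the highest mean r to the 10 members over 8 arrays was that of Ctsz, a lysosomal cathepsin (0.646), followed by Pid1 (0.641), Arhgef25 (0.637), the importin Ipo9 (0.634) and Specc1l (0.632). For Pdgfra alone the most alike were the sorting nexin Snx24 (r = 0.987), the endocytic adaptor Itsn1 (0.978) and Cmtm3 (0.975). These were picked as the highest of all genes over 8 arrays and are a description only.

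Genes of the fibroblast subtypes were read from lists of their own. Of 10 papillary genes, 7 lay lower with collagen, none at unadjusted p under 0.05, with Col23a1 at 8.02 ± 3.45 millionths and Lrig1 at -1.49 ± 1.01 millionths. All 11 measured reticular and fascia genes lay lower (47.1% of all genes did), with a median of -0.826 within-diet SD. None reached unadjusted p under 0.05, and 9 of 11 lay lower without collagen 2. The mean z value of the list ran from -0.766 to 0.828 (collagen 4) with collagen and from 0.046 to 0.627 in controls. Plac8 differed by -4426 ± 2664 millionths, Dlk1, a reticular and preadipocyte protein, by -1.12 ± 0.704 millionths, and Sema3c by -0.263 ± 23.7 millionths. Dlk1, at a level of 7.72, lay below the median of all probe sets. Of the other groups, 6 of 12 dermal papilla genes, 5 of 9 myofibroblast genes and 7 of 9 fibroblast matrix genes lay lower. Without collagen 2 these were 6, 4 and 6. Only 5 of the 12 dermal papilla genes reached the median level of all probe sets. Sox2, Corin, Rspo3, Alpl, Fgf10, Bmp6 and Hhip lay below it. Versican (Vcan), abundant in the dermal papilla, differed by 14.3 ± 36.5 millionths, the myofibroblast gene Lrrc15 by -821 ± 621 millionths, and Pcolce, an enhancer of procollagen cleavage, by -216.9 ± 110.7 millionths.

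Markers of several other skin cells were low in the same array as the members. The mean z value of 10 macrophage markers ran from -1.3 (collagen 2) to 1.2 (collagen 4) in the collagen group and from -0.339 to 0.927 in the control group. That of 9 endothelial markers ran from -1.34 (collagen 2) to 0.506 with collagen and from -0.187 to 0.718 in controls, and that of 5 Schwann cell markers from -1.66 (collagen 2) to 0.811 with collagen and from -0.365 to 0.347 in controls. The fibroblast matrix genes ran likewise from -1.29 (collagen 2) to 0.798 (collagen 4) with collagen, and from -0.36 to 0.597 in controls. Keratinocyte and melanocyte markers had their highest mean z values, 0.842 and 1.385, in collagen 2, and skeletal muscle markers were at 0.131 in it. In collagen 4, the array where Prrx1, Fap and S100a4 were highest, T cell markers had their highest mean z value, 1.47. In the other collagen arrays it went down to -0.758, and in the controls it ran from -0.322 to 0.44. Macrophage and adipocyte markers, reticular and fascia genes, and fibroblast matrix genes were highest in collagen 4 as well. The part of these cells in the values of the members was not tested.

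With collagen, 9 of 10 macrophage markers, 9 of 9 endothelial markers, 6 of 9 pericyte and mural markers, 9 of 10 skeletal muscle markers and 4 of 8 T cell markers lay lower. So did 4 of 7 adipocyte markers, 4 of 5 Schwann cell markers, 1 of 8 keratinocyte markers and 0 of 7 melanocyte markers. Without collagen 2, macrophage markers were lower in 7 of 10, endothelial in 8 of 9, adipocyte in 2 of 7, Schwann cell in 2 of 5 and keratinocyte in 3 of 8. At unadjusted p under 0.05 the keratinocyte gene Itgb4 (-5.24 ± 2.04 millionths) and the muscle gene Casq1 (-2837 ± 1138 millionths) lay lower. The melanocyte genes Slc45a2 (4.31 ± 1.54 millionths), Tyrp1 (3589 ± 1387 millionths) and Dct (1559 ± 609 millionths) lay higher at that level, and no gene of these lists passed the adjusted test. The pericyte marker Rgs5 differed by -8.70 ± 3.23 millionths (unadjusted p = 0.0332 and adjusted p = 0.999 by limma), the macrophage marker Cd68 by -726 ± 515 millionths and the T cell marker Cd3g by -17.1 ± 25.8 millionths. Skeletal muscle markers had mean z values from -1.41 (collagen 1, the array in which Fap and Dpp4 were lowest) to 0.217 with collagen and from -0.532 to 1.11 in controls. Of these lists, markers below the median of all probe sets were Higd1b (pericytes), Cd8a and Cd8b1 (T cells), Tie1 (endothelium), Mag (Schwann cells) and Tyr, Mlana, Slc45a2 and Oca2 (melanocytes). With the muscle mean z value as a covariate, the Fap and Dpp4 differences were -309.3 ± 603.6 and -64.9 ± 150.5 millionths. Those of Pdgfra, Pdgfrb and Twist1 also became smaller in size, while those of Twist2, Thy1, Dpt, Prrx1 and S100a4 became larger. The difference between the 3' and 5' control probe sets of Gapdh lay between 0.29 and 0.2906 in the collagen arrays, highest in collagen 1, and between 0.2898 and 0.2904 in the control arrays. With it as a covariate the Fap and Dpp4 differences were -264.4 ± 545.4 and -52.2 ± 133.5 millionths. Those of Pdgfra, Twist1 and Thy1 became smaller in size too, while those of Pdgfrb, Twist2, Dpt, Prrx1 and S100a4 became larger. The causes of these shifts were not tested.

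**Figure D5:**
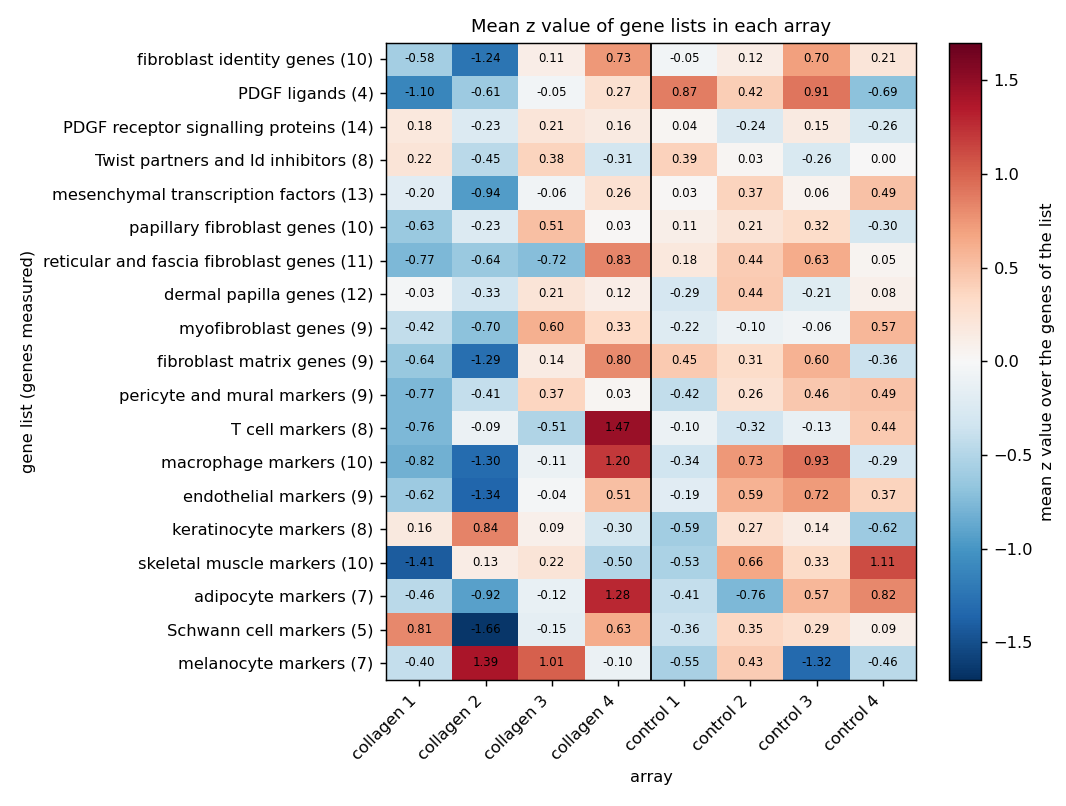
Mean z value over the genes of each list (rows, with the number of genes measured) in each array (columns, collagen arrays left of the line), from blue (low) to red (high). The fibroblast identity genes, fibroblast matrix genes, macrophage, endothelial and Schwann cell markers each have their lowest value in collagen 2.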

How the data were processed

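Total RNA of powdered frozen dorsal skin was labelled with biotin for 1-colour arrays, per the labels' protocols. The authors deposited values, read here as log2, in a table of 8 columns, 1 per array. R 2.7.2 is named in the submitters' processing notes. How probes were summarised and normalized is not stated in the sources used here. The scale was read as log2 from the range of values, 6.56 to 14.46, and that range alone does not establish it.

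The values were used as deposited. Of 45101 probe sets, 64 control probe sets were left out. The platform annotation gave 1 gene symbol for 34945, several for 932 and none for 9160. Genes were tested in R 4.3.3 with limma 3.58.1 (lmFit, eBayes, collagen minus control, no covariate, two-sided) over all 18193 genes, and probe sets over all 45037, with Benjamini-Hochberg adjustment at 0.05. The prior degrees of freedom were 0.488 for genes and 0.514 for probe sets. Arrays were labelled replicates, and the p-values set the diet difference against the spread between arrays of the same diet. The cage of each array is not given, so an effect of cage cannot be told apart from that of diet. Correlations used exact permutation of 40320 pairings with scipy 1.17.1. The limma fit was tested on simulated data. The members and gene lists were chosen with earlier results of these data known. Named genes were the members, those most alike, and in each list the 2 with the smallest p and the highest in level; of these the text gives some. Promoters are from RefSeq, GRCm38.p6.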

Additional observations from a re-analysis of the deposited data

How the results depend on the processing

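Calls of members at adjusted p under 0.05 stayed at 0 under each alternative run: each array left out, quantile normalization, median subtraction, a filter on dim probe sets, other variance models, array weights, the replicate block, both covariates, and the mean over all probe sets of a gene. Quantile normalization gave 8 genes past adjusted p 0.05 (limma), none of them a member. It left 4 members with the same rank in each array and so no difference, and 4 of the other 6 lower. Median subtraction gave 4 of 10 members lower. With an array left out the count of lower members ran from 5 to 9, the lowest without collagen 2, and the median pairwise r from 0.141 to 0.459. The replicate number as a block changed no call (0 members, 0 genes). With it, genes at unadjusted p under 0.05 by limma rose from 635 to 1109. The SE fell from 5.23 to 0.528 millionths for Prrx1 and from 17.0 to 7.22 for Dpt, and rose from 887 to 1165 for Thy1. Same-numbered arrays of the diets correlated between 0.0111 and 0.3622, and arrays of unlike number between -0.2831 and 0.1751. Whether the numbers mark pairs is unknown, and the main test did not use them. Collagen 1 and 3 correlated best with their own number, and collagen 2 and 4 did not.

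Single differences, none called, changed sign in 20 of 176 alternative values. Median subtraction moved the difference of every member up by the same amount. Pdgfra went from -71.0 to -15.8 millionths and S100a4 from 5.45 to 60.6 millionths. The same shift brought Pdgfrb to 54.8, Twist1 to 32.6, Twist2 to 28.7 and Dpt to 47.8 millionths. The cause of the other changes of sign was not tested. Twist1 was at 96.1 and Prrx1, with no change of sign, at 135.0 after quantile normalization, whose differences follow steps of rank. Pdgfrb was at 10.5 and S100a4 at -4.86 with array weights, and Prrx1 at -2.80 as the mean of its probe sets. With an array left out, Pdgfrb ran from -8.92 to 7.83, Twist1 from -47.9 to 2.33, Dpt from -17.9 to 5.49, Prrx1 from -1.48 to 4.15 and S100a4 from -24.7 to 23.8 millionths. Spearman rho, chosen after seeing the data, gave a median of 0.286 over the 45 pairs.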

Other observations

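The spread between arrays of the same diet differed between members, and these SDs were not tested. It was larger in the collagen group in 6 of 10 members, against 55.9% of all genes. Fap had an SD of 941.6 millionths in the collagen arrays and 330.3 millionths in the control arrays, Pdgfrb 20.7 and 6.08 millionths, and Dpt 31.2 and 16.5 millionths (n = 4 each). In the other direction, Twist1 had 54.3 and 63.3 millionths and Thy1 1269 and 1340 millionths. Prrx1 (7.67 and 7.71 millionths) and Dpp4 (177.3 and 178.1 millionths) were nearly equal.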
